A study of Homo sapiens with 4 samples.

Results

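MicroRNA-21 is represented on the array by both arms of its hairpin, miR-21-5p, which the array files list under the older name hsa-miR-21, and miR-21-3p, listed as hsa-miR-21*. The arms were chosen by name and are 2 of the 851 human miRNAs listed. The study had picked out miR-21-3p from these same arrays for its rise with berberine. Its high place among the ratios below is thus a description and no independent support. They were measured in HepG2, an established human hepatoma cell line, on single-dye Agilent human miRNA microarrays. Cells were exposed for 2 h or 4 h to 40 µM berberine chloride, a plant alkaloid dissolved in dimethyl sulfoxide (DMSO), or to 0.08% DMSO as the control. Each of the 4 conditions was hybridized to 1 array, so the spread between cultures is unknown, no test was made, and precision is limited by this number of arrays. The study asked which miRNAs respond to berberine, and went on to test the genes of methionine adenosyltransferase 2A and 2B, MAT2A and MAT2B, as targets of miR-21-3p. The study also measured both arms by qRT-PCR in independent experiments, which are not part of these arrays. There it reported a rise of miR-21-3p. For miR-21-5p it reported a rise at 2 h and no significant difference at 4 h. These arrays measured no mRNA, so the targets themselves were not analysed here.

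A miRNA hairpin is cut by the nucleases Drosha and Dicer into a short duplex, of which a single strand is usually kept by an Argonaute protein and guides it to mRNAs that pair with the seed, the bases near the 5′ end of the miRNA. The other strand, the passenger, is mostly degraded. In the case of miR-21 the 5p arm is the common guide, an abundant miRNA of many tumors including hepatocellular carcinoma. The 3p arm has a different sequence and thus a different set of possible targets. Transcription of the gene is known to be raised by AP-1 and STAT3, and its transcripts overlap those of VMP1, a gene with a role in autophagy.

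The RefSeq table of mature miRNAs held 1 of the 2 arms, miR-21-5p. In assembly GRCh38.p14 it lies on the plus strand at chr17:59841273-59841294, at bases 8 to 29 of the 72-base MIR21 hairpin, whose interval falls within the protein-coding gene VMP1. Among the 2545 mature miRNAs in that table, 2 carry its seed, and both are shown because a shared seed pairs with the same seed sites. The other is miR-590-5p, at chr7:74191213-74191234 on the plus strand. The seed, bases 2 to 8 from the 5′ end, is in capitals.
hsa-miR-21-5p: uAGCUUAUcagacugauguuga
hsa-miR-590-5p: gAGCUUAUucauaaaagugcag
Outside the seed the sequences part, and they hold the same base at 8 of their 22 positions in all.

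Of the 851 human miRNAs, 199 to 242 were detected on an array and 197 on all 4 arrays, and no spot was saturated. Undetected miRNAs carried a placeholder signal of 0.1. The 5 hepatocyte markers, which include miR-122 and miR-192, were all detected on every array, with a summed signal of 2623 to 4907. The brightest of them, hsa-miR-148a, gave 1253 to 2313, while miR-122 was dim, with 22.4 to 39.9. Of 10 markers of blood, muscle and neurons, none was detected on the control arrays or on the berberine array at 2 h, and 2 blood markers, hsa-miR-451 and hsa-miR-142-3p, were detected at 5.31 and 6.13 on the berberine array at 4 h.

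miR-21-5p was among the 3 brightest human miRNAs on every array. Its total signal, the background-subtracted intensity summed over its probes, was 11833 ± 861 (error of the Feature Extraction software) in control cells and 8108 ± 591 in berberine-treated cells after 2 h. After 4 h it was 10795 ± 788 in control cells and 16770 ± 1219 in treated cells. Its rank was 3 on every array but that of berberine at 4 h, where it was 2. By mean signal over the arrays, hsa-miR-720 and hsa-miR-1274b stood above it, and the next below were hsa-miR-1260 and hsa-miR-1274a. All 4 of these entries are known as pieces of tRNA rather than products of a miRNA hairpin. Next by mean signal came hsa-miR-20a, with 1699 to 3081, although hsa-miR-19b, with 1531 to 3116, was the brighter of that pair on both arrays at 4 h. miR-21-5p held 8.23% to 12.5% of the summed signal of all human miRNAs detected on an array. That sum includes the pieces of tRNA, of which hsa-miR-720 alone gave 37534 to 40425. The share of miR-21-5p without them is higher and was not calculated. These are ranks and shares of array signal, not of molecules, since probes of different miRNAs bind with different strength.

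The 3p arm was dim in control cells and in the middle of the range in treated cells. The total signal of miR-21-3p was 27.1 ± 2.60 without and 113 ± 8.58 with berberine after 2 h. After 4 h it was 24.7 ± 2.89 without and 104 ± 7.90 with berberine. Among the detected miRNAs it ranked 140 of 235 in control and 66 of 199 in treated cells after 2 h. After 4 h it ranked 136 of 226 in control and 94 of 242 in treated cells. Ranks are taken within an array and need no scaling between arrays, and both berberine arrays placed miR-21-3p higher than both control arrays.

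**Figure D1:**
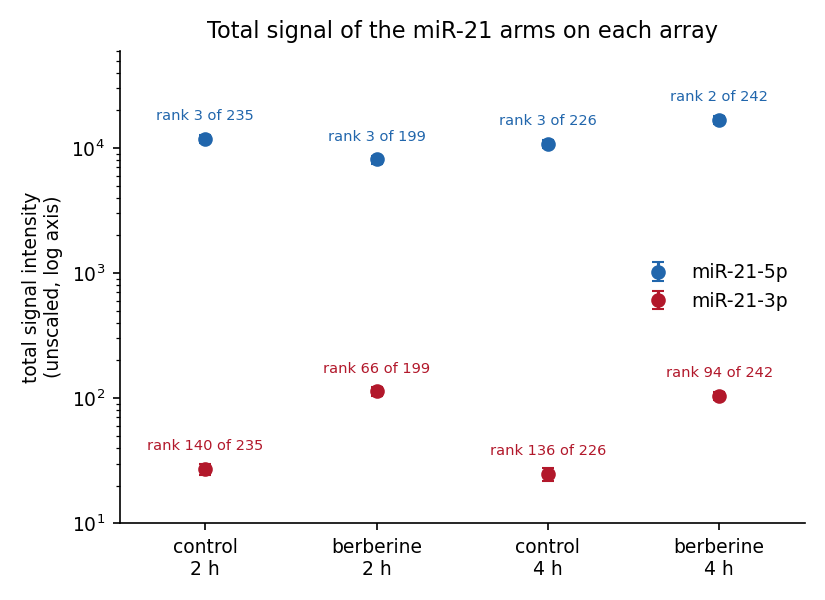
Total signal intensity (log axis, not scaled between arrays) of miR-21-5p in blue and miR-21-3p in red on the 4 arrays, with bars for the error given by Feature Extraction. miR-21-3p lies at 24.7 and 27.1 on the control arrays and at 104 and 113 on the berberine arrays, while miR-21-5p keeps rank 2 or 3.

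For ratios between arrays, log2 signals were scaled by subtracting the 75th percentile that each array showed over the 197 miRNAs detected on all 4. On this scale miR-21-5p stood at 5.60 without and 5.58 with berberine after 2 h, and at 5.58 without and 5.82 with berberine after 4 h. The values at 4 h differed by 0.24 (SE 0.15) and those at 2 h by -0.02 (SE 0.15), both within 1.96 SE. The SE comes from the errors of Feature Extraction and covers the measurement on an array only. By contrast, miR-21-3p stood at -3.17 and -3.19 on the control arrays at 2 h and 4 h, and at -0.58 and -1.51 on the berberine arrays. The control arrays could not be told apart for this arm, with a log2 ratio of 4 h over 2 h of -0.02 (SE 0.22), and those of miR-21-5p gave -0.02 (SE 0.15). Between these control arrays 0.457% of 219 miRNAs were more than 2-fold higher at 4 h and 1.83% lower, or 0.457% and 3.65% without scaling, neither arm among them.

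Of the 2 arms, miR-21-3p alone was more than 2-fold higher with berberine, the boundary that the study used, and it was so at both times. The background of miRNAs more than 2-fold higher was 0.508% of the 197 measured at 2 h and 0.459% of the 218 measured at 4 h, which in each case is miR-21-3p itself. Its fold change was 6.00 at 2 h, with a 95% range from the measurement error of 4.72 to 7.63, and 3.20 at 4 h, with a range of 2.44 to 4.20. The next highest ratios were a 1.73-fold one for hsa-miR-181d at 2 h and a 1.98-fold one for hsa-let-7b* at 4 h. Both were dim, with signals of 16.9 against 14.1 in control cells and of 6.26 against 2.40. The SE of their log2 ratios was 0.29 and 0.53. The first place of miR-21-3p was not kept under every setting: it came to place 3 at 2 h and 11 at 4 h with a median pooled over the spots of both probes, and to place 3 at 4 h with the negative control median subtracted. miR-21-5p came at place 99 of 197 from the highest ratio at 2 h and at place 52 of 218 at 4 h. The 6 miRNAs next to miR-21-3p in mean signal were hsa-miR-17*, hsa-miR-532-5p, hsa-miR-301b, hsa-miR-1225-5p, hsa-miR-125a-5p and hsa-miR-340. Their log2 ratios were -0.07 to 0.15 after 2 h and -0.04 to 0.27 after 4 h. The mean of miR-21-3p includes its berberine arrays, so these 6 were brighter in control cells, with 46.5 to 67.6 against 24.7 and 27.1. They do not show the spread of ratios at its control signal. Over the 4 arrays the SD of the scaled log2 signal was 1.29 for miR-21-3p, the highest of the 197 miRNAs, and 0.11 for miR-21-5p, against a median of 0.12.

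**Figure D2:**
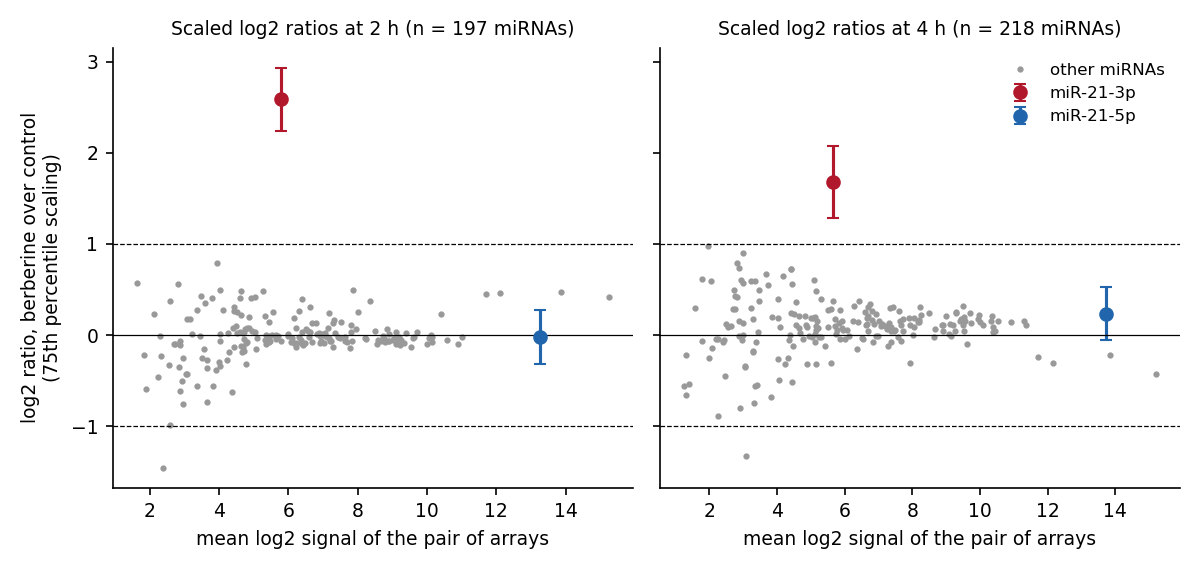
Scaled log2 ratio of berberine over control against the mean log2 signal of both arrays, for the 197 miRNAs measured at 2 h and the 218 at 4 h, with dashed lines at a 2-fold change and bars of 1.96 SE on the miR-21 arms. miR-21-3p stands at 2.59 and 1.68, apart from miRNAs of like mean signal, and miR-21-5p at -0.02 and 0.24.

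Each arm was read by 2 probes with 8 spots each, and spots of an array are technical repeats and no replicates of a condition. At 2 h the spots of the first miR-21-3p probe ranged from 13.4 to 19.6 (median 16.5) in control cells and from 72.2 to 87.8 (median 79.5) in treated cells. At 4 h they ranged from 10.2 to 25.7 (median 12.9) without and from 54.2 to 75.1 (median 71.6) with berberine. The second probe gave 33.3 to 43.2 (median 36.1) against 122 to 144 (median 139) at 2 h, and 28.9 to 55.3 (median 31.4) against 121 to 143 (median 132) at 4 h. No control spot of a probe reached a berberine spot of that probe at the same time.
The spots sit at the same places on each array, so they can also be compared place by place. After scaling, all 8 ratios were above 0 for each miR-21-3p probe at each time, with medians on the log2 scale of 2.72 and 2.40 at 2 h and of 2.10 and 1.59 at 4 h. The single lowest was 0.89, from the second probe at 4 h, against the control spot of 55.3 that stood above the other 7. In the dim control cells the first probe was close to the background of the array. Its 8 control spots at 2 h all lay under 21.6, the 99th percentile of the 434 negative control spots, whose median was 2.67, although the software marked all 8 as well above background. At 4 h it marked 2 of the 8. The brightest negative control spot reached 141 on the berberine array at 2 h, above every spot of that probe there, while the 99th percentile was 20.2. The first probe thus gave a more uncertain fold change than the second, whose control spots all lay above that percentile (17.1 at 4 h). Against the brightest negative control spot, the second probe fell short at 2 h as well. There 0 of its 8 control spots passed the 64.5 of that array, and 3 of its 8 berberine spots passed 141. At 4 h all 8 passed on both arrays.
The spots of miR-21-5p were bright and close together. The first probe gave 14039 to 15092 (median 14296) in control cells and 7566 to 10431 (median 10141) in treated cells at 2 h. At 4 h it gave 11704 to 13862 (median 13302) without and 18310 to 20669 (median 20272) with berberine. The second probe had medians of 8564 and 5939 at 2 h and of 7820 and 12605 at 4 h. After scaling, the place by place ratios of miR-21-5p at 2 h fell on both sides of 0, with 4 and 3 of 8 above it. At 4 h all 8 were above 0 for both probes, with medians of 0.22 and 0.28 on the log2 scale. This shift at 4 h was larger than the spread between spots but within 1.96 SE of the software's error, which for these bright probes was close to 10.0% of the signal. The spots share the arrays and the scaling, so their spread does not measure differences between arrays. On this scale the median log2 ratio of all miRNAs measured at 4 h was 0.11. With scaling to the median instead, miR-21-5p was at 0.07 at 4 h.

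**Figure D3:**
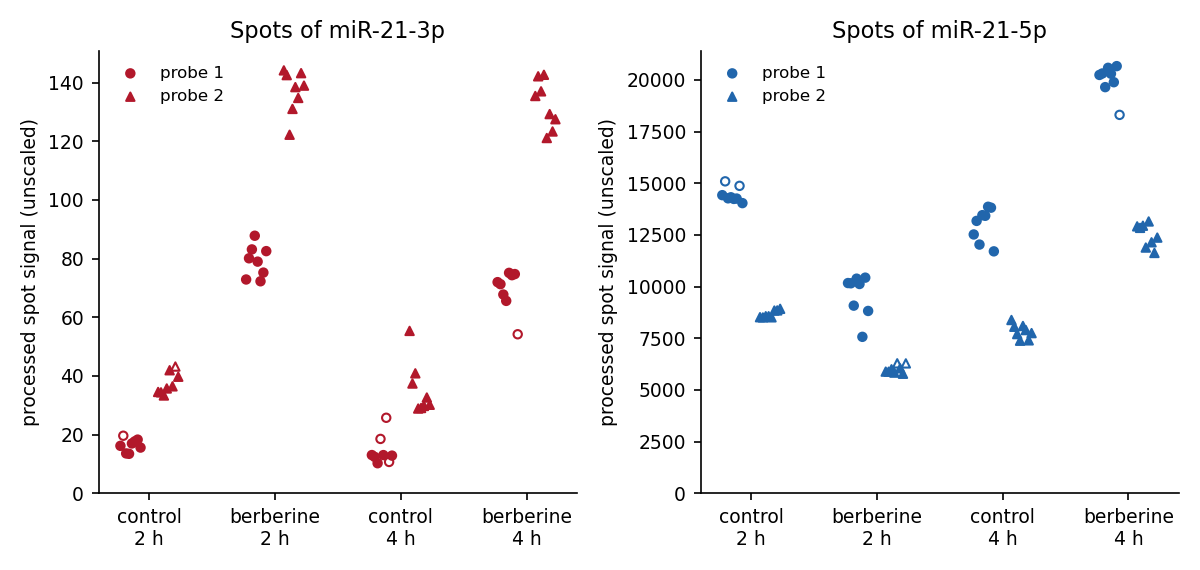
Processed signal of each spot, not scaled between arrays, for the 2 probes of miR-21-3p (left) and miR-21-5p (right), with 8 spots per probe and array and open symbols for spots that Feature Extraction marked as outliers. The miR-21-3p spots of each probe do not overlap between control and berberine at either time, and the miR-21-5p spots lie lower with berberine at 2 h and higher at 4 h.

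The balance between the arms was compared within each array, where a difference in brightness that is common to all signals of an array cancels, while one in background or between kinds of signal does not. On both control arrays miR-21-3p made up 0.229% of the summed signal of the 2 arms, with errors of 0.0275 and 0.0314 percentage points. On the berberine arrays it made up 1.37% ± 0.143 at 2 h and 0.619% ± 0.0645 at 4 h. Put the other way, miR-21-5p was 437-fold and 436-fold brighter than miR-21-3p on the control arrays, 71.7-fold brighter on the berberine array at 2 h and 161-fold brighter at 4 h. A fixed difference in binding between the probes of the arms can bias these levels but cancels in their change. Berberine against control, the arm ratio changed by 2.61 on the log2 scale at 2 h (SE 0.23) and by 1.44 at 4 h (SE 0.25), or 6.09-fold and 2.72-fold towards miR-21-3p. With the normexp background correction, which adds an offset of 50, these changes were 1.51 and 0.24.
The same measure was taken for every hairpin with both arms named on the array. Of 215 such pairs, 22 had both arms detected on all 4 arrays, miR-21 among them. The change was that of the dimmer arm against the brighter arm. The background of hairpins with an arm ratio more than 2-fold higher with berberine was 4.55% at each time, which is miR-21 itself. Over the other 21 hairpins the change ran from -1.29 to 0.49 on the log2 scale at 2 h, with a median of -0.06, and from -1.64 to 0.96 at 4 h, with a median of -0.07. Among these 21 the change was upward at both times in 1, miR-335* against miR-335 with 0.09 (SE 0.45) and 0.20 (SE 0.35), downward at both times in 6 and opposite in 14. By the smaller of the changes at 2 h and 4 h, the hairpins next after miR-21 were those of miR-335, miR-574 and miR-455, none of which changed beyond 1.96 SE. Among falls seen at 2 h as well as 4 h, hsa-miR-20a* had the largest, with -0.34 (SE 0.37) and -0.41 (SE 0.30), followed by hsa-miR-30e* and hsa-miR-194*. The lowest single changes were -1.29 (SE 0.48) for hsa-let-7b* at 2 h and -1.64 (SE 0.32) for hsa-miR-194* at 4 h. With the mean of all spots in place of the total signal, the lowest change at 2 h was -0.37. With a median pooled over the spots of both probes, miR-21 came to place 3 of the 22 at 2 h, with 2.14 against 2.82 for hsa-miR-335*. In control cells miR-21-3p had the lowest share of any dimmer arm among the 22 hairpins at both times. With berberine its share was the fourth lowest of the 22 at 2 h and the second lowest at 4 h, so that miR-21-5p stayed by far the brighter arm. These places hold among the 22 only, since hairpins with an arm undetected on any array were left out. Outside the 22, the dim hsa-miR-148a* gave 4.17 beside 1870 for hsa-miR-148a in control cells at 2 h, a share close to that of miR-21-3p. With berberine at 4 h it gave 3.90 beside 2313, a lower share than that of miR-21-3p.

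**Figure D4:**
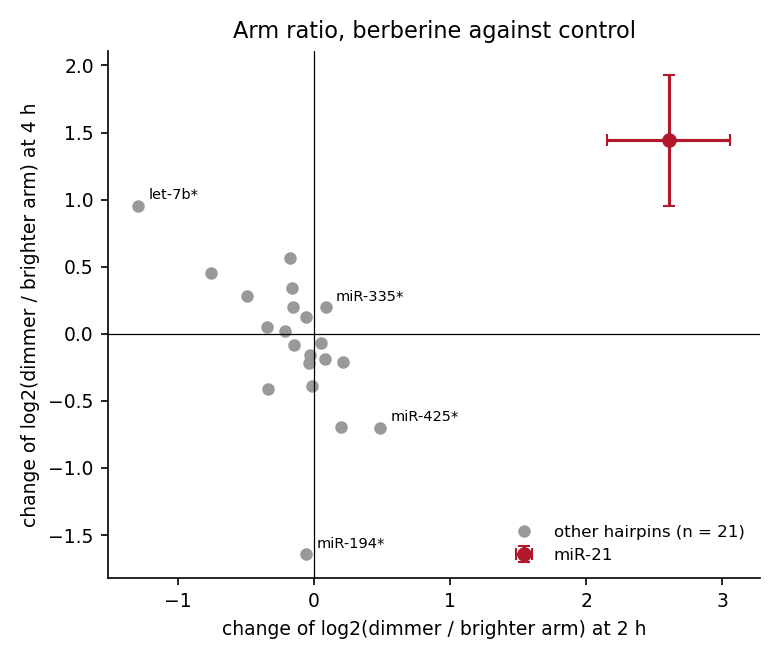
Change of the log2 ratio of the dimmer over the brighter arm, berberine against control, at 2 h (horizontal) and 4 h (vertical), for miR-21 in red and the other 21 hairpins in grey, with bars of 1.96 SE on miR-21. miR-21 lies at 2.61 and 1.44, outside the range that the others have on either axis with the total signal.

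Whether the response of miR-21-3p differed between 2 h and 4 h depended on what the signals were set against. After scaling, its log2 ratio was lower at 4 h than at 2 h by a difference of -0.91 (SE 0.27). Without scaling, the ratios were 2.06 and 2.08, or 4.17-fold and 4.22-fold, and differed by 0.02. Nearly all other miRNAs moved together between the unscaled arrays. Of the 195 others detected on all 4 arrays, 192 were lower with berberine at 2 h and 183 were higher at 4 h, with 181 doing both. The median log2 ratio of all measured miRNAs was -0.55 at 2 h and 0.51 at 4 h. miR-21-5p moved with them, at -0.55 and 0.64. Without scaling, 5.08% of miRNAs were more than 2-fold lower at 2 h, miR-21-3p was the 0.508% that were higher, and 5.5% were higher at 4 h, miR-21-3p among them and miR-21-5p not.
The 12 bright positive control features of the array, built into its design, changed less. Which of them were added to the RNA before labelling is not given in the sources used here, so whether they follow input or labelling is not known. Their log2 ratios ran from -0.30 to -0.05 at 2 h, with a median of -0.15, and from -0.20 to 0.32 at 4 h, with a median of -0.01. The 5 tRNA-derived entries, a group chosen after their values were seen, changed by a median of -0.08 at 2 h and 0.17 at 4 h. Set against the control features, the fold change of miR-21-3p was 4.62 after 2 h and 4.21 after 4 h, and that of miR-21-5p 0.760 and 1.55. The fall in the arm share of miR-21-3p from 2 h to 4 h of berberine thus came with nearly equal unscaled signals of miR-21-3p, 113 and 104, and with a 2.07-fold higher unscaled signal of miR-21-5p, where 23.9% of miRNAs were more than 2-fold higher. After scaling, miR-21-5p differed between these arrays by 0.23 (SE 0.15) and miR-21-3p by -0.93 (SE 0.15), short of 2-fold, and 1.02% of miRNAs were more than 2-fold higher at 4 h and 2.03% lower. A difference between the arrays in input or labelling of small RNA and a change in the miRNA content of the cells cannot be told apart with 1 array per condition.

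**Figure D5:**
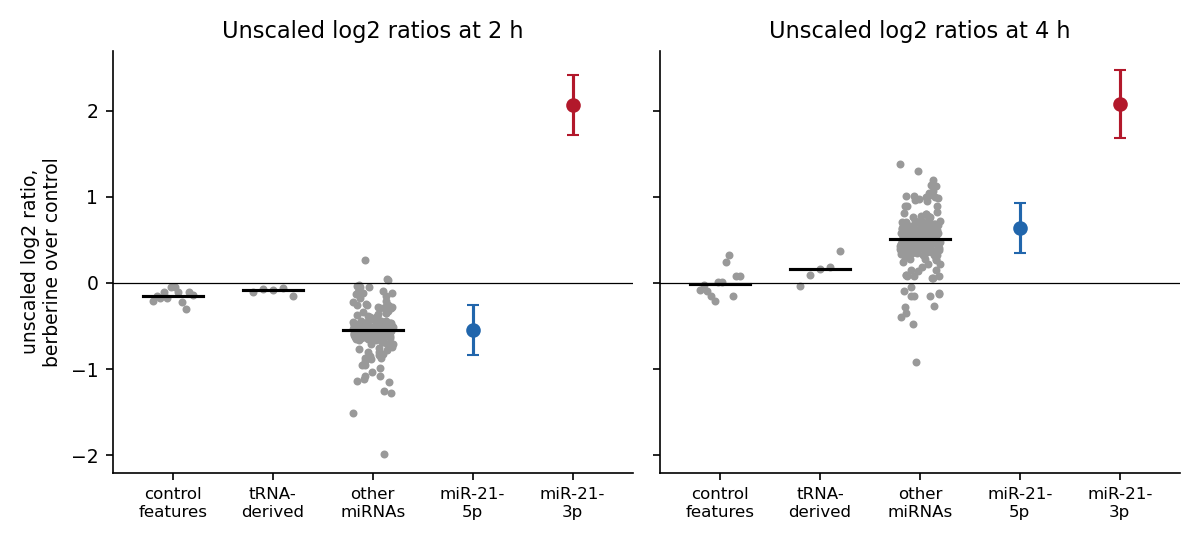
Log2 ratio of berberine over control without scaling, at 2 h and 4 h, for the 12 bright control features, the 5 tRNA-derived entries, the other miRNAs measured and the arms of miR-21, with horizontal lines for medians and bars of 1.96 SE on the arms. The body of miRNAs lies below 0 at 2 h and above 0 at 4 h and miR-21-5p lies within it, while miR-21-3p is at 2.06 and 2.08.

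The miRNAs whose scaled profile over the 4 arrays was nearest that of miR-21-5p were hsa-miR-151-5p, hsa-miR-23b and hsa-miR-101, at Euclidean distances of 0.043 to 0.049 between centred log2 signals, against a median distance of 0.24 to all others. No profile came that near to miR-21-3p. This follows from the size of its own change, since the profiles were not set to a common spread. It is no further trait of this arm. The nearest were hsa-miR-181d, hsa-miR-572 and hsa-miR-501-5p, at distances of 1.66 to 1.82, with a median of 2.20. Their log2 ratios were 0.79 (SE 0.29), 0.56 (SE 0.44) and 0.18 (SE 0.30) at 2 h.
hsa-miR-590-5p, which shares the seed of miR-21-5p, had signals of 83.1 without and 55.0 with berberine at 2 h, and of 63.4 without and 93.1 with it at 4 h. The signal of miR-21-5p was 142 to 180 times as bright. After scaling, the log2 ratio of hsa-miR-590-5p was -0.07 (SE 0.16) at 2 h and 0.15 (SE 0.16) at 4 h, within 1.96 SE of no change like that of its seed partner.
A list of 10 other miRNAs known to be induced by signals or stress was set beside miR-21. Of these, hsa-miR-155, an immune response miRNA, and hsa-miR-132, induced through CREB, were detected on no array. Of the 8 detected on all 4 arrays, 0 were more than 2-fold higher or lower at either time, beside 0.508% higher and 0.508% lower of all miRNAs at 2 h and 0.459% each at 4 h. Without scaling 1 of them, hsa-miR-212, was past 2-fold at both times, at -1.03 and 1.30 on the log2 scale. The unscaled share of all miRNAs was 5.08% lower at 2 h and 5.5% higher at 4 h. After scaling, the median log2 ratio of the 8 was -0.04 at 2 h and 0.10 at 4 h, beside -0.02 and 0.11 over all miRNAs measured. hsa-miR-34a, a target of p53, was at 0.00 (SE 0.15) and 0.04 (SE 0.15), and hsa-miR-146a, a target of NF-κB, at -0.06 (SE 0.17) and 0.20 (SE 0.16). hsa-miR-210, a target of the hypoxia factor HIF-1, was at -0.02 (SE 0.15) and 0.30 (SE 0.15). The widest swing was that of the dim hsa-miR-212, from -0.51 (SE 0.50) to 0.90 (SE 0.50).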

How the data were processed

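The authors deposited the Feature Extraction output of each array, in which intensity values per spot, probe and miRNA are background-subtracted and not scaled between arrays, with flags of 0 or 1 for detection and outliers. A deposited table of berberine over control ratio values holds only the authors' own comparison and was not used, and 0 columns of per-sample values were left unused.

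Total signals of human miRNAs were put on the log2 scale and set to the 75th percentile of each array. Ratios were formed where a miRNA was detected on both arrays, and errors were propagated from the deposited signal errors. The members, lists and alternatives were chosen with earlier results of these data known. The miRNAs named by a rule were both arms, the 3 neighbours on each side in mean signal, the 3 nearest profiles, the 3 brightest miRNAs, the hairpins with the 3 largest rises and the 3 largest falls of the arm ratio, ordered by the smaller of the changes at 2 h and 4 h (for a fall, the smaller in size), the lists and the miRNAs of the same seed. Other miRNAs named for the highest ratio or lowest arm change were chosen after their values were seen. The alternatives cover scaling, probe summary and background, and control features and tRNA-derived entries were added after the data were seen. Python 3.11.15, pandas 2.3.3, R 4.3.3 and limma 3.58.1 (normexp only, with an offset of 50) were used. The calculation of the scaling was checked on simulated arrays that differed by a constant shift. That check cannot show whether the scaling suits the real arrays. The mature sequence comes from RefSeq, GRCh38.p14. The array files name an older build and their coordinates were not used.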

Additional observations from a re-analysis of the deposited data

Results flagged for a closer look

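The log2 ratio of miR-21-5p differed in sign between the times, with -0.02 (SE 0.15) at 2 h and 0.24 (SE 0.15) at 4 h, a difference of 0.26 (SE 0.21) that is within 1.96 SE and, with 1 array per condition, was not tested. The value at 2 h was close to 0 and shows no direction, and its sign varied with the processing: it was 0.01 with the negative control median subtracted, 0.04 with the per-probe median of unflagged spots and 0.12 with the pooled median. The value at 4 h was -0.17 with the percentile over all human miRNAs and -0.75 with the pooled median. Opposite directions are therefore not established.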

How the results depend on the processing

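No paired analysis was possible because every condition has only replicate 1, and no replicate could be left out. The authors' table, planned as an alternative where it held values per sample, was not run. The log2 values that follow are for 2 h and, second, for 4 h. Unscaled, miR-21-3p had 2.06 and 2.08, and the 5p arm -0.55 and 0.64. With the bright control features, chosen after the data were seen, they were at 2.21 and 2.08 and at -0.40 and 0.63. With the percentile taken over every human miRNA, which on the berberine array at 2 h is the value for undetected miRNAs, they were at 7.69 and 1.27 and at 5.09 and -0.17. With normexp, whose offset of 50 exceeds the median control spot of both miR-21-3p probes, miR-21-3p was at 1.26 and 0.42 and the arm ratio at 1.51 and 0.24. A median pooled over the unflagged spots of both probes gave 0.92 for miR-21-3p and -0.75 for miR-21-5p at 4 h and 2.14 for the arm ratio at 2 h. Before scaling, the pooled miR-21-3p ratio at 4 h was 2.06, and the 75th percentile of these medians then took off 1.14, against 0.40 with the total signals. Taken per probe and summed, added after the data were seen, it gave 2.63 and 1.77 for miR-21-3p. The first probe alone gave 2.13 for miR-21-3p at 4 h, against control spots of which 2 of 8 were well above background, so that its size is uncertain. Thus miR-21-3p was above 0 under each alternative and under 2-fold at 4 h with normexp and the pooled median. The percentile over every miRNA put all 197 miRNAs past 2-fold at 2 h and says nothing there about miR-21-3p. The arm ratio was above 0 under all 7 alternatives at each time. Signal ranks on an array moved by less than 1.5 times under the 3 alternatives tried. The number of miRNAs more than 2-fold higher, 1 at each time as reported above, was 8 at each time with the pooled median, and at 4 h 12 without scaling and with the control features, 3 with the summed signal or the negative control median subtracted, and 0 with normexp. Dim signals near the negative control spots limit the fold changes of miR-21-3p.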
